A study of Mus musculus with 28 samples.

Results

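Osr1, Osr2, Meox1, Meox2, Mn1, Prdm16 and Hmga2 are 7 genes listed as regulators of the mesenchyme that forms the secondary palate. They were taken by name from the 21887 protein-coding genes annotated in the mouse genome (GRCm38). For each gene, every deposited interval of H3K27ac that lay over the gene or within 150 kb of it was collected. This gave 304 of the 125826 intervals in the list. H3K27ac, acetylation of histone H3 at lysine 27, marks active promoters and enhancers. The intervals were called once on the merged reads of 4 chromatin immunoprecipitation libraries of cranial neural crest cells, the embryonic cells that build most of the face. The cells came from wild-type (WT) embryos at E10.5, and the labels name the 4 populations FNP, Mx, Md and PA2, with 1 library each, from cells isolated by fluorescence-activated sorting. The series also covers progenitors at E8.5 and the genotypes Ezh2cKO and HoxA2OE, which were not analysed here. No interval carries a population or a replicate, so no value below has a replicate error or a test, and an interval of few strongly acetylated cells cannot be told apart from one of many weakly acetylated cells.

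The secondary palate grows from the maxillary prominences as a pair of shelves, which lift above the tongue and fuse. At E10.5 the crest mesenchyme has reached the prominences and the shelves have not yet grown out, so the list describes the chromatin of these genes before that step. It does so for the 4 populations pooled, and no interval can be assigned to the maxillary prominences alone. Osr1 and Osr2 encode related zinc-finger transcription factors of the odd-skipped family. Loss of Osr2 in the mouse impairs shelf growth, while Osr1 is best known for its need in heart and kidney precursors. Meox1 and Meox2 encode homeodomain proteins of somites and limb mesenchyme, and mouse embryos without Meox2 can show a cleft palate. Mn1 encodes a transcriptional regulator that the mouse palate needs for shelf growth and for expression of Tbx22. Prdm16 encodes a PR-domain zinc-finger protein, also known as a regulator of brown fat, whose mouse mutants have cleft palate. Hmga2 encodes an architectural protein that binds AT-rich DNA, and its loss causes the small stature of pygmy mice.

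The whole list gives the scale for these genes. The score of an interval is the authors' own value, which by the convention of the caller grows with the evidence for enrichment. On chromosomes 1 to 19, X and Y, the 125580 intervals had a median width of 271 bp and a median score of 111. The 304 intervals of the 7 genes had a median width of 299.5 bp and a median score of 122. Scores of at least 100 were reached by 62.2% of them and by 56.0% of all intervals. Scores of at least 1000 were reached by 5.92% of them and by 11.5% of all intervals. The 5.92% includes intervals at ends of neighbouring protein-coding genes. Markers of facial mesenchyme had an interval within 1 kb of a gene end in 8 of 8 genes, with scores from 87 at Prrx1 to 4697 at Prrx2. Markers of other cells had such an interval in 4 of 6 epithelial genes (highest at Grhl2, 1367), in 4 of 4 endothelial genes (98 to 391), in 4 of 4 neuronal genes (81 at Elavl3 to 4646 at Elavl4, a score close to that of Prrx2), in 3 of 4 myogenic genes (143 at Myf5 to 380 at Myf6) and in 1 of 4 blood genes (Spi1, 1492). Among tissues in which Meox and Osr genes are also active, 2 of 4 somite markers had one (Tcf15 at 498 and Tbx6 at 90), and 1 of 3 markers of intermediate mesoderm did (Wt1 at 75). Over all protein-coding genes the share with such an interval was 65.0%, which several of these counts are close to, so the counts do not separate the cell types. The part of such cells in the values below was not tested.

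All 7 genes carried H3K27ac at a gene end. An interval lay within 1 kb of an annotated end in 7 of 7 genes, against 65.0% of all protein-coding genes, and over the gene in 7 of 7, against 73.1%. The highest end scores were 4204 at Hmga2 and 4103 at Mn1. The scores at Osr1, Meox2 and Prdm16 were 814, 778 and 742, and the lowest were 381 at Osr2 and 240 at Meox1. All 7 thus reached a score of 100, as 61.2% of all genes did, but 2 of 7 reached 1000, against 45.5% of all genes. Their median end score was 778, while the 14235 protein-coding genes with an interval at an end had a median of 2494. Mn1 and Hmga2 stood above that median, the other 5 below it, and Osr2 and Meox1 also below the lower quartile of 704.5. Prdm16, Meox2, Mn1, Osr2, Meox1 and Hmga2 had the interval at 1 end, and Osr1 had intervals at both, as 9.91% of all genes did.

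**Figure D1:**
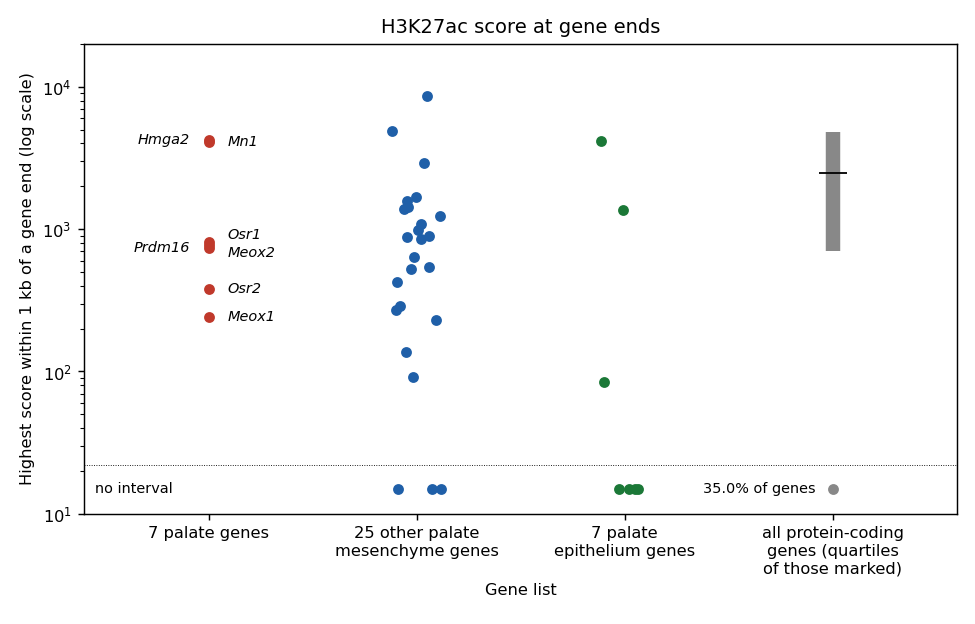
Highest score of an H3K27ac interval within 1 kb of a gene end, on a log scale, for each of the 7 palate genes, for 25 other palate mesenchyme genes and 7 palate epithelium genes, and for all protein-coding genes, where the grey bar runs over the quartiles of the genes with such an interval, from 704.5 to 4794, and the black line is their median of 2494. Points below the dotted line are genes with no interval at an end; Hmga2 and Mn1 lie at 4204 and 4103 and the other 5 genes between 240 and 814.

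The arrangement of intervals around the start of transcription could be read at base level for Meox2, Prdm16 and Hmga2, whose start windows are in the RefSeq table of the same build. The windows run from 250 bases before the start site to 50 bases from it onward, on the coding strand, and are shown because they place the intervals on the promoter. Capitals mark bases inside a deposited H3K27ac interval and lower case marks bases outside. The windows are chr12:37108290-37108589 (plus strand) for Meox2, chr4:154636824-154637123 (minus strand) for Prdm16 and chr10:120476420-120476719 (minus strand) for Hmga2.
Meox2: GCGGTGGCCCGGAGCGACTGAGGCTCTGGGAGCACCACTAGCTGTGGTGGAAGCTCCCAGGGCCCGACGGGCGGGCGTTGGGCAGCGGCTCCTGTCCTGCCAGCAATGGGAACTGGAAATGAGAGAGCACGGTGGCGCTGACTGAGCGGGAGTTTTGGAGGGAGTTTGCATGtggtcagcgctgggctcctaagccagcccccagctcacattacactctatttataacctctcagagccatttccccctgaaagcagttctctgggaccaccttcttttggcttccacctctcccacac
Prdm16: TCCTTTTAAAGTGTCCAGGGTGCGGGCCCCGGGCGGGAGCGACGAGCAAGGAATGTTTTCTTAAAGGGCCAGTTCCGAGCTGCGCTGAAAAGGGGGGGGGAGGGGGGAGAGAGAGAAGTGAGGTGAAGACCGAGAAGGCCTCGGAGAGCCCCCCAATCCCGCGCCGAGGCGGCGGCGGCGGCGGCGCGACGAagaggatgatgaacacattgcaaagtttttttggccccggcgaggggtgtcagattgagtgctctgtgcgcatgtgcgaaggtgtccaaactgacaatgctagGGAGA
Hmga2: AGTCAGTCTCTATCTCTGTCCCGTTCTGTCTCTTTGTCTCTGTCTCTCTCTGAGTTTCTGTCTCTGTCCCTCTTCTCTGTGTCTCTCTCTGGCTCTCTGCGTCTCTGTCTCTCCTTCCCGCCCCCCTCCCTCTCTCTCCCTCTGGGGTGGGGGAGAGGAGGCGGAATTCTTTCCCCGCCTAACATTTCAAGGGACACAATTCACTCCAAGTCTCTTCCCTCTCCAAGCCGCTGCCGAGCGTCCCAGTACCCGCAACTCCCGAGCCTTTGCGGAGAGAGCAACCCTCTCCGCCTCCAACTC

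In 2 of these 3 genes, Meox2 and Prdm16, the start site of the window lay in a short gap between intervals. For Prdm16 that start site, chr4:154636873, is inside the annotated gene. The outer end of Prdm16, at 154637360, was covered by an interval, so the gap holds only for the start site used here. At Meox2 the gap was 152 bp, with an interval of score 778 on the upstream side and one of score 129 inside the gene. At Prdm16 the gap was 103 bp, between intervals with scores of 471 and 695. At Hmga2 a single interval of 2345 bp and score 4204 covered the start site and the whole window. Only 0.0135% of all intervals were at least as wide as that of Hmga2. Of the 17829 annotated start sites with an interval within 1 kb, 57.6% lay inside an interval, and 12.8% lay in a gap with an interval within 200 bp on each side. Mn1 showed a like pair of intervals at its lower-coordinate end, chr5:111416444-111417144 with a score of 4103 and chr5:111417291-111418068 with 3230, and the annotated end lay inside the second, close to its edge.

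The 3 windows also differed in sequence. Prdm16 had 24 CG dinucleotides in its 300 bases, and Meox2 and Hmga2 had 12 each, while the median of 32851 start windows was 7. Across all windows, 90.1% of the third with the most CG dinucleotides (15 or more) overlapped an interval, against 7.94% of the third with the fewest (4 or fewer). The letters of 4 short motifs were searched on both strands. GGGCGG, the letters of a GC box, occurred once in each of the 3 windows and in 35.7% of all windows. TATAAA occurred in Meox2 alone of the 3, as its reverse complement 29 bases before the start site, outside the interval, and in 13.6% of all windows. CANNTG, the letters of an E-box, occurred once in Meox2 and once in Prdm16 and in 72.3% of all windows. TAATTA, letters bound by many homeodomain proteins, was in none of the 3 windows and in 5.29% of all.

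The number of intervals around the genes varied as well. The whole window, gene and flanks together, held 83 intervals for Prdm16, 69 for Hmga2, 50 for Mn1, 40 for Meox1, 24 for Osr1, 20 for Osr2 and 18 for Meox2. The median over all protein-coding genes was 22, with quartiles of 11 and 32. More intervals than this median were held by 5 of 7 genes, against 48.2% of all genes. Prdm16 was at the 99.7th percentile, Hmga2 at the 99.3rd, Mn1 at the 96.2nd and Meox1 at the 88.9th, where a percentile is the share of genes with fewer intervals and ties are shared equally. Osr1, Osr2 and Meox2, at the 55.7th, 44.9th and 39.7th, lay within the middle of all genes. Window length differs between genes, since Prdm16 spans 321.2 kb and Osr1 7.06 kb. Per 100 kb of window, the order of the leading genes changed to 16.6 intervals for Hmga2, 14.7 for Mn1, 13.4 for Prdm16 and 12.6 for Meox1, then 7.82 for Osr1, 6.51 for Osr2 and 4.85 for Meox2, with a median of 6.42 for all genes.

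**Figure D2:**
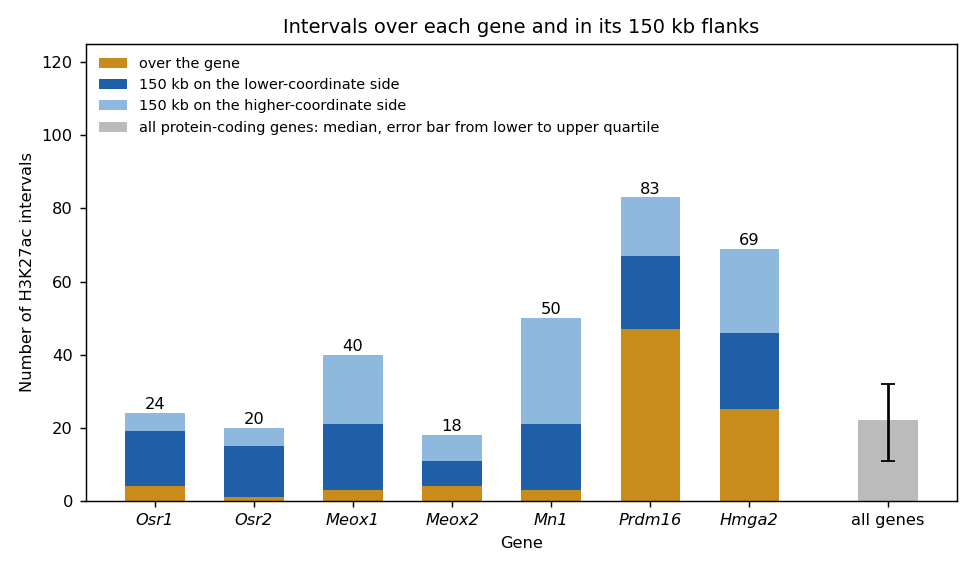
Number of H3K27ac intervals over each palate gene and in the 150 kb on its lower-coordinate and higher-coordinate side, stacked, with the total above each bar. The grey bar is the median of all protein-coding genes, 22, with an error bar from the lower quartile of 11 to the upper quartile of 32; Prdm16, Hmga2, Mn1 and Meox1 stand above the upper quartile.

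Of the 7 genes, Osr1 had the densest acetylation over its own body. It was also the shortest of them, so this density rests on few intervals. Its 7059 bp (chr12:9574442-9581500) held 4 intervals, 5.67 per 10 kb, against a median of 0.615 per 10 kb for all genes, and 22.9% of its bases were covered. The strongest, with a score of 814, began 11 bp inside the lower-coordinate end (chr12:9574453-9575084). A second strong interval, with a score of 576, lay 3552 bp beyond the higher-coordinate end (chr12:9585052-9585545). Outside this core the Osr1 surroundings were weak in score but not low in number, with 20 intervals in the flanks against a median of 19 for all genes. Of its 24 intervals 10 had a score of at least 100, or 41.7%, the lowest share of the 7 genes, and apart from the 2 just named no score passed 226. The window held no other protein-coding gene, the nearest being Ttc32 at 538.0 kb on one side and Nt5c1b at 788.5 kb on the other, so all 24 intervals had Osr1 as nearest protein-coding gene.

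Osr2 had a different layout from its paralogue, with its stronger intervals outside the gene. Over its 7208 bp (chr15:35296098-35303305) lay 1 interval, of 1081 bp and score 381, at the lower-coordinate end. Higher scores stood on both sides, 969 at 23.1 kb beyond the higher-coordinate end (chr15:35326397-35326999) and 663 at 19.0 kb beyond the lower (chr15:35276234-35277051). Both lay away from every annotated gene end, a class of 97366 intervals in which 2.97% scored at least 969 and 4.43% at least 663. The largest scores in the window belonged to the ends of neighbours, 9944 at Stk3, which encodes a Hippo pathway kinase, and 2730 at Vps13b. The highest end scores were 814 at Osr1 and 381 at Osr2, and the bases covered in the window came to 7.07 kb at Osr1 and 8.47 kb at Osr2. A score reflects significance and depth, so its size is not a fold of acetylation, and with no replicate the precision of these values is not known.

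The Meox genes differed in the same list in their flanks, which held 37 intervals at Meox1 and 14 at Meox2. They also differed over the gene, with 1.78 intervals per 10 kb at Meox1 and 0.563 at Meox2. The highest end score ran the other way, with 240 at Meox1 and 778 at Meox2. The Meox1 window held 40 intervals and the Meox2 window 18, and they covered 16.4 kb and 5.78 kb. Meox1 (chr11:101877510-101894354) lies in a gene-rich stretch with 7 other protein-coding genes in the window, among them Etv4, an Ets-family factor, and Sost, a secreted Wnt inhibitor. Of its 40 intervals, 16 had Meox1 as the nearest protein-coding gene, while 11 of the 18 in the Meox2 window had Meox2. By nearest gene the 2 thus differed less than by window. The 3 scores of at least 1000 in the Meox1 window lay at ends of Dhx8 (2792), Mpp3 (1846) and Etv4 (1364). The strongest interval of Meox1 itself had a score of 777 and lay inside the gene, 3917 bp from its lower-coordinate end (chr11:101881427-101882143). At the higher-coordinate end were 3 weak intervals, with scores of 95, 240 and 40.

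Meox2 (chr12:37108540-37179534) was the most sparsely acetylated of the 7 genes. Apart from the interval of score 778 before its start, no score in the window passed 262. Its 70995 bp held 4 intervals, 0.563 per 10 kb, just under the median of all genes, and the other 6 genes lay above it, against 50.0% of all genes. A stretch of 63.6 kb on the lower-coordinate side had none, and beyond the higher-coordinate end the next interval lay at 62.2 kb, at the end of its neighbour Agmo. On the far side, 5 intervals stood together over 10.3 kb (chr12:37301666-37311944), the largest run in the window when gaps of up to 12 kb are joined.

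Mn1 combined strong acetylation at its end with a long acetylated flank. The pair of intervals at its lower-coordinate end scored 4103 and 3230. The gene itself (chr5:111417300-111457030) held 3 intervals, 2 of them at that end, and a stretch of 29.9 kb that ran past the other end had none. Its flanks held 47, at the 98.1st percentile of all genes, with 29 on the higher-coordinate side, where the next protein-coding gene, Cryba4, lies 789.5 kb away. On that side a run of 17 intervals extended over 73.6 kb. Scores there reached 1713 at 51.6 kb beyond the gene (chr5:111508595-111509877, at an end of the non-coding gene Gm36223), 988 at 97.6 kb and 1112 at 145.2 kb (chr5:111602266-111603009). The single highest score in the window, 7974, lay at the end of Pitpnb, a phosphatidylinositol transfer protein gene, on the other side.

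Prdm16 (chr4:154316122-154637360) had intervals scattered along most of its body. It held 47 intervals, at the 99.6th percentile of all genes, and for its length still 1.46 per 10 kb. They covered 18515 bp, or 5.76% of the gene. This share was smaller than at Osr1 (22.9%), Osr2 (14.6%), Hmga2 (9.61%) and Meox1 (6.85%), and larger than at Mn1 (2.97%) and Meox2 (1.82%). The strongest interval, 1706, lay close to the start (chr4:154635064-154636294), at an end of the non-coding gene 5930403L14Rik. Deeper inside the gene, scores reached 1126 (chr4:154390383-154391381) and 688 (chr4:154423279-154423769), at 74.3 and 107.2 kb from the 3′ end. In the flanks were 20 intervals on the lower-coordinate side and 16 on the higher. Of the 83 intervals in the window, 49 had Prdm16 as the nearest protein-coding gene, and 47 of these lay over the gene itself. The nearest neighbours were Arhgef16, at 16.0 kb on the lower-coordinate side, and Actrt2, at 29.1 kb on the higher. The longest stretch without an interval, 36.9 kb, began upstream of the start, over the non-coding gene Prdm16os.

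Hmga2 (chr10:120361268-120476469) had the highest end score, the widest interval and, over the whole window, the highest density. Over the gene lay 25 intervals, 2.17 per 10 kb, and 29.8 kb of the window were covered, or 7.18%, against a median of 2.77% for all genes. Beside the interval at its start, it had a second strong one far outside, chr10:120551999-120553288, with a width of 1290 bp and a score of 3015. This interval lay 75.5 kb upstream of the gene and away from every annotated gene end, a class in which 0.845% of intervals scored as high. Around it ran the largest cluster found here, 19 intervals over 93.4 kb (chr10:120513660-120607061). Another interval away from gene ends scored 1356 on the 3′ side, at 113.7 kb, nearest to Llph. The longest gap in the window was 18.5 kb, the shortest such gap of the 7 genes.

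**Figure D3:**
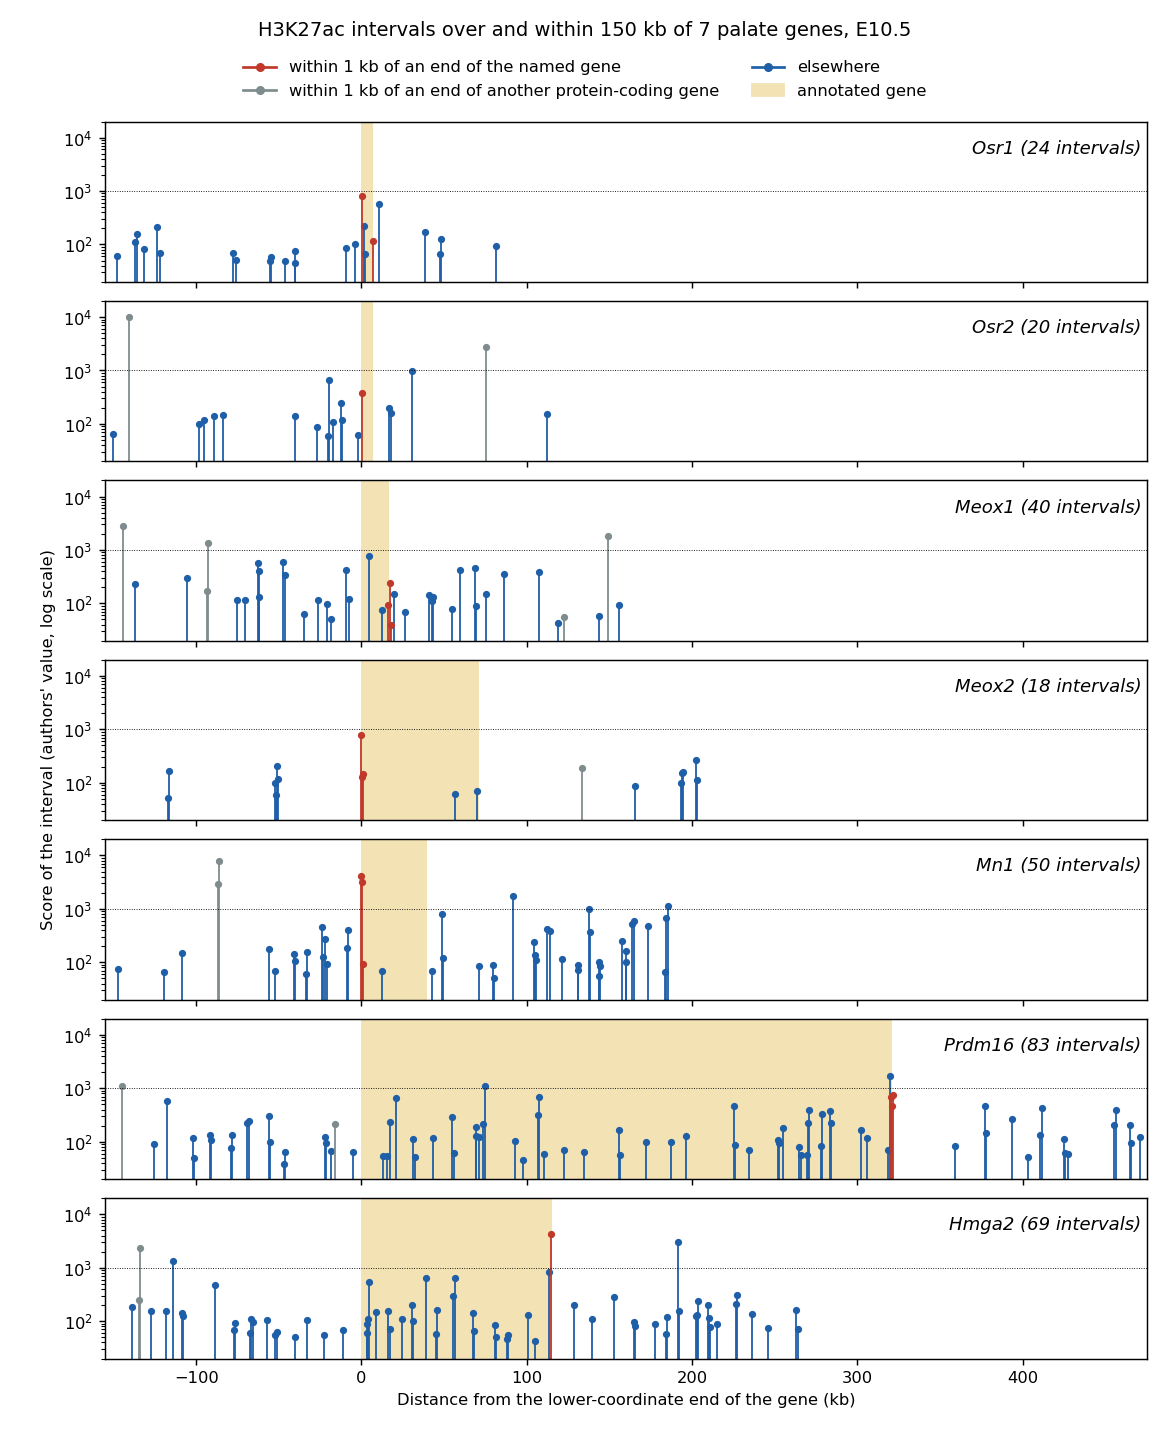
Each panel shows the H3K27ac intervals around one palate gene as lines at their distance in kb from the lower-coordinate end of the gene, with their score on a log scale; the shaded span is the gene and the dotted line marks a score of 1000. Red intervals lie at an end of the named gene, grey ones at an end of another protein-coding gene, and blue ones elsewhere; Hmga2 has a blue interval at a score of 3015, and at Osr2 and Meox1 every interval above 1000 is grey.

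The highest score in a window did not always lie at the gene it was drawn around. A score of at least 1000 occurred in the windows of 5 of 7 genes, against 82.4% of all genes. At Osr2, Meox1 and Mn1 the highest score lay at an end of a neighbour, and at Osr1, Meox2 and Hmga2 at an end of the gene itself. At Prdm16 it lay inside the gene, at an end of the non-coding gene 5930403L14Rik, and the highest score at an end of Prdm16 was 742. Of the 304 intervals, 14 lay within 1 kb of an end of another protein-coding gene and 202 had one of the 7 genes as the nearest protein-coding gene. In all, 251 lay away from every annotated end, coding or not, with a median score of 117, against 98 for all 97366 intervals of this kind. Of these 251, 4 (1.59%) reached a score of 1000, against 2.88% of all such intervals: 2 at Hmga2, 1 at Mn1 and 1 inside Prdm16.

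The count of intervals built up differently with distance. Within 10 kb of the gene, Mn1 and Meox1 had 9 intervals each, Osr1 had 7, Meox2 5 and Osr2 3, with a median of 3 for all genes. Within 50 kb, Mn1 and Meox1 had 20 each, Osr1 13, Osr2 12 and Meox2 5, with a median of 8. Between 50 and 150 kb, Mn1 went on to 50 and Meox1 to 40, while Osr1 reached 24 and Osr2 20, where the median was 22. The Osr genes were thus above the median at 50 kb and on either side of it in the full window, and Meox2 was below it from 50 kb outward. The sides in the full window turned with the score: among intervals scoring at least 100, Osr1 had 10 and Osr2 had 15, with a median of 13 for all genes. Hmga2 and Prdm16 began with 25 and 47 intervals over the gene and stayed highest at every distance.

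**Figure D4:**
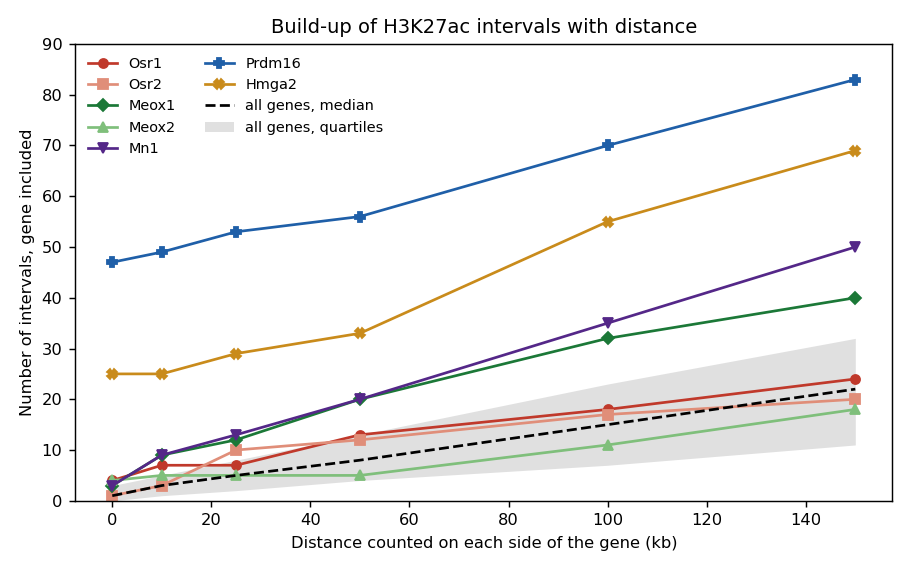
Number of H3K27ac intervals over each gene and within 0, 10, 25, 50, 100 and 150 kb of it on each side. Coloured lines are the 7 palate genes, the dashed line is the median of all protein-coding genes, which reaches 22 at 150 kb, and the grey band spans their quartiles; Meox2 runs below the median from 50 kb on, and Prdm16, Hmga2, Mn1 and Meox1 end above the band.

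Other genes of palate development were set beside these 7. Of 25 palate mesenchyme genes, 22 had an interval at a gene end, and of 7 palate epithelium genes 3 did, against the 65.0% of all genes given above. The highest end scores of the 32 genes were 8670 at Bmpr1a, a BMP receptor gene, 4860 at Gli3, a Hedgehog pathway factor, and 4167 at Tgfb3, which encodes a ligand of the fusing shelf edge. The mesenchyme genes without one were Tbx22, a T-box gene that acts downstream of Mn1 in the mouse, Bmp4 and Inhba. The epithelium genes without one were Shh, Wnt9b, Grhl3 and Trp63. All 32 had an interval over the gene, as 73.1% of all genes did. The mesenchyme genes had a median of 28 intervals in the window and the epithelium genes 20, while the 7 regulators had 40. At Tbx22 the window held 8 intervals, the fewest of the 32 genes, and at Mn1 it held 50.

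The pattern of each gene was also set against the 38 other genes of both lists over 4 measures in this single list: intervals per 10 kb over the gene, intervals in the flanks, bases covered in the window and the highest end score. Likeness was the mean difference in percentile among all protein-coding genes. The most alike were Foxf1 for Meox1 (4.88 points), Tgfb3 for Hmga2 (5.36), Pdgfra for Osr2 (5.76), Ptch1 for Prdm16 (5.97), Nectin1 for Meox2 (7.21), Foxf2 for Osr1 (7.89) and Hmga2 for Mn1 (9.37). No paralogue was the most alike gene of its partner.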

How the data were processed

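The list of H3K27ac intervals rests on 4 of the 28 libraries of the series, and the other 24 were not analysed here. Per the deposited text, the authors merged the alignments of the 4 WT libraries of E10.5 and ran MACS2 2.1.3.3 on them. Its options switched the fragment model off, set the shift to 0, extended reads to 141 bp, retained duplicates and accepted q-values up to 0.001, and they name no control. The submitters' processing notes list bcl2fastq 2.17, Bowtie 1.1.1 and the build GRCm38. Each interval has a start, an end and 1 score, the authors' deposited value, which by MACS2 convention is a whole number made from the q-value and grows with read depth; scores ran from 31 to 3194311. Depth is unknown, and reads piled up at repeats can give high scores.

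Intervals were counted with Python 3.11.15, pandas 2.3.3 and NumPy 2.4.6 (figures with matplotlib 3.10.9) against the RefSeq genes of GRCm38.p6. An overlap of 1 bp counted, a gene end was the end base with 1 kb on either side, and starts were converted to count from 1. Gene strand was used only for genes in the start-site table, which holds 3 of the 7. The counting was checked on 200 windows of simulated intervals, with 0 mismatches. All 7 genes are described, with their strongest intervals over the gene, in the flanks and at an end, and of the other palate genes the 3 with the highest end score and every unmarked one. The genes, lists and motifs were chosen with earlier results of these data known. No test was made, since the list has no samples to compare.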

Additional observations from a re-analysis of the deposited data

How the results depend on the processing

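The 7 of 7 genes with an interval at a gene end stayed at 7 when intervals had to score 100 or more or to lie among the upper 50% of scores, with a window of 2.5 kb and with at least 50% of the interval in the window. Over all genes the shares in these settings were, in the same order, 61.2%, 60.5%, 70.8% and 63.2%. With the end base itself the count was 4 of 7 (Osr2, Mn1, Prdm16 and Hmga2), against 32.6% of all genes, and the other palate genes fell to 14 of 32. Counting annotated start sites gave 3 of 3 genes and 20 of 22 palate genes, because the table holds no others of them. The share over all genes counted this way was 65.5%. The 5 of 7 genes above the median for intervals in the window became 6 with flanks of 100 kb (48.8% of all genes) or 50 kb (49.7%). It was also 6 with intervals per 100 kb (50.0%), an alternative added after seeing the data. It became 7 without intervals at ends of other genes (48.6% of all genes) or with each interval given to its nearest gene (46.3%). By covered bases it became 4, against 50.0% of all genes. In the settings that gave 7, the counts of the 7 genes fell or stayed the same. The median of all genes fell from 22 to 14 and to 2, while Osr2 went from 20 to 18 and 12 and Meox2 from 18 to 17 and 11. Prdm16, Hmga2, Mn1 and Meox1 led the order of counts in 6 of 7 settings, the main one included; with each interval given to its nearest gene Osr1, with 24, passed Meox1, with 16. With scores of at least 100 Osr1 had 10 intervals and fell below the median of 13, below Osr2, with 15 and then above it, and below Meox2, with 11. Among the upper 50% of scores Osr1 had 9 and Osr2 14, with a median of 12. No paired analysis was possible because the list pools its 4 libraries.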
